A study of Mus musculus with 104 samples.

Results

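Blunt junctions are joins in which the bait and the prey sequence meet directly, with no shared bases and no inserted bases. They were chosen by the read alignments. A junction counted as blunt where the prey alignment of a read began at the base right after the end of the bait alignment, and only junctions more than 5 Mb from the pool's own bait break were taken. Of 2018794 junction reads, 531098 lay outside that zone, and 35265 of these (6.64%) were blunt. Of the others, 394418 (74.3%) had an overlap, meaning that bases at the join fit both sides and are read as microhomology, and 101415 (19.1%) had inserted bases. Just outside the rule's limits, 55964 junctions (10.5%) had an overlap of 1 base and 21969 (4.14%) had 1 inserted base.

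The junctions come from high-throughput genome-wide translocation sequencing (HTGTS), which amplifies and reads the joins between a fixed bait break and breaks elsewhere in the genome. Mouse embryonic stem cells (ESC) of line 1 and line 2 were used, along with neural progenitor cells (NPC) differentiated from them. All groups, controls included, had the strain label C57BL6/129SVE and the genotype Xrcc4-/- p53-/-. The bait break lay on chromosome 7, 12 or 15, and cells had been given aphidicolin (APH), an inhibitor of replicative DNA polymerases, or DMSO, its solvent. The labels list 104 experiments, which by cell type, line, bait and treatment form 24 pools, 6 in each of the 4 conditions. No pool with working Xrcc4 was analysed here, so no level in repair-proficient cells stands beside these values. Pools held 4713 to 88587 junctions outside the zone, 316 to 5432 of them blunt. Whether experiments were separate cultures is not in the labels, and p-values reflect only the variation among pools, which may be technical.

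Xrcc4 works with DNA ligase 4 in classical non-homologous end joining, the main pathway that seals double-strand breaks, and this pathway commonly makes direct joins. Without it, ends are joined by alternative end joining, which is known for resected ends and for use of short microhomologies. Loss of p53 lets cells with unrepaired breaks survive. A blunt join in these cells is therefore one made without the classical ligase complex. A join is called blunt from the alignment, and chance identity of bases on both sides turns some direct joins into apparent overlaps of 1 or more bases.

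To show what such a join looks like, the reads below give 20 bait bases in lower case and the first 20 prey bases in capitals, 5′ to 3′ along the read. They are 2 prey positions of each bait, with positions on the mm9 build. They were chosen by the number of pools in which their blunt junctions were seen, from part of the genome only. They are examples and need not be the most recurrent positions of the whole genome. All other junctions at the same positions are counted below as well.
Bait 7, prey chr8:42513515, + strand: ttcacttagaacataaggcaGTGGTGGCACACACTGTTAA
Bait 7, prey chr8:77493878, - strand: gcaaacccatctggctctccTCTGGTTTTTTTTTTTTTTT
Bait 12, prey chr10:39824251, - strand: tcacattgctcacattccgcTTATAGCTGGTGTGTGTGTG
Bait 12, prey chr11:99143353, - strand: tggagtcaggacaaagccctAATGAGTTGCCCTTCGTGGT
Bait 15, prey chr12:87703221, + strand: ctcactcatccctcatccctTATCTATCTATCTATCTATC
Bait 15, prey chr2:41848739, + strand: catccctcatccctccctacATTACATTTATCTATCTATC

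These positions were rare among blunt junctions. The bait 15 site on chromosome 12 had 7 blunt junctions in 6 pools, among 26 junctions of any class there, and the site on chromosome 2 had 7 in 6 pools among 20. For bait 7, the site at chr8:42513515 had 7 blunt junctions in 4 pools among 54 of any class, and the site at chr8:77493878 had 6 in 4 pools among 9. For bait 12, the site on chromosome 10 had 8 blunt junctions in 5 pools among 42, and the site on chromosome 11 had 4 in 2 pools among 4. The prey bases shown hold 5 and 3 copies in a row of the unit TATC at the bait 15 sites, a run of 15 T at chr8:77493878 and 5 copies of GT on chromosome 10. Counted per bait, the blunt junctions fell on 27513 positions and strands, of which 20606 were seen once and 5880 in 2 or more pools. Repeated read names were dropped only within a pool, so whether pools share reads or molecules was not tested. The tests below treat pools as separate, although 5880 positions were seen in 2 or more of them. Their p-values rest on that treatment and may not hold if pools share molecules. No position held more than 11.

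One experiment stood apart. In NPC line 1 with bait 12 under DMSO, the blunt share was 6.82% in experiment A, 23.5% in B, 6.77% in C and 6.53% in D. Experiment B had 1247 blunt junctions among 5301. Within 5 Mb of the bait its blunt share was 9.54%, within the range of the other 3 experiments. In B, 595 of the 1247 blunt junctions (47.7%, exact 95% binomial interval 44.9 to 50.5%) ended the bait at the same base, chr12:13000860, against 0.956 to 2.59% in the other 3 experiments. Of all junctions of B with that bait end, 55.8% were blunt, and at its other bait ends 15.4% were. The 595 joined 589 different prey positions. An overlap of 1 base was also more frequent in B (17.3%) than in the others (9.14 to 9.95%). Without B the pool had 1235 blunt junctions among 18480 (6.68%), and the whole set had 34018 among 525797 (6.47%). Most comparisons of shares that use this pool are given with and without B below. Over the other 86 experiments of the 21 pools whose rows carry letters that match the labels, the share ranged from 5.10 to 11.8% with a median of 6.58%, and the median SD among experiments of a pool was 0.446 percentage points. In ESC line 1 bait 7 APH, experiments A to G lay between 9.19 and 11.8% and experiment H, the deepest, at 7.43%. Reads listed under more than 1 letter were counted under the first: all 10907 rows of experiment B of NPC line 2 bait 12 APH were also listed under A, and in ESC line 1 bait 7 APH experiment C repeated 3719 rows of A and 3983 of D.

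**Figure D1:**
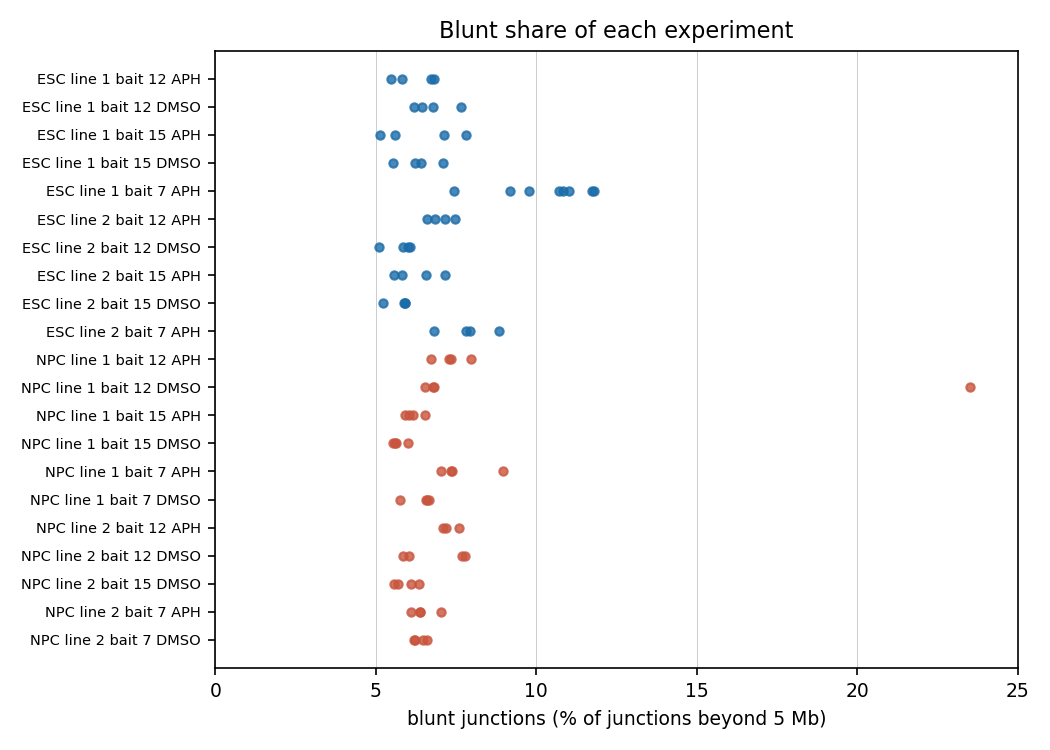
Blunt share of each of 87 experiments (points, horizontal axis, percent of junctions beyond 5 Mb of the bait break), 1 row per pool, ESC in blue and NPC in red. Experiment B of NPC line 1 bait 12 DMSO lies at 23.5%, and the other 86 between 5.10 and 11.8%.

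The blunt share was close to 7% in every condition. In ESC under DMSO the lowest, median and highest pool had 5.76, 6.43 and 8.69% (mean 6.87 ± 1.24%, SD, n = 6). In ESC under APH they had 6.04, 6.67 and 9.45% (7.14 ± 1.34%). In NPC under DMSO they had 5.66, 6.37 and 10.4% (6.95 ± 1.75%, and 6.32 ± 0.432% without experiment B). In NPC under APH they had 6.05, 6.72 and 7.69% (6.77 ± 0.668%). The 4 ranges overlapped. Counting error differed with the size of the pool. The exact 95% interval ran from 5.97 to 6.29% in the largest pool (NPC line 1 bait 15 APH) and from 7.34 to 8.92% in the smallest (ESC line 1 bait 7 DMSO). Such intervals cover counting error only: the reads carry no molecular identifiers and several may stem from 1 molecule.

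No difference between cell types or treatments passed the threshold, by two-sided exact sign-flip tests on 6 pairs of pools (same line and bait) with Benjamini-Hochberg adjustment over 5 comparisons. With 6 pairs, a single comparison at the smallest possible p cannot pass after this adjustment, so the absence of a call says little. NPC differed from ESC by 0.0779 ± 2.21 percentage points under DMSO (higher in 3 of 6 pairs, adjusted p = 1; -0.548 ± 1.28 points without experiment B, adjusted p = 0.562) and by -0.372 ± 1.06 points under APH (higher in 3 of 6, adjusted p = 0.938). APH differed from DMSO by 0.271 ± 0.921 points in ESC (higher in 3 of 6 pairs, adjusted p = 0.938) and by -0.18 ± 1.64 points in NPC (higher in 5 of 6, adjusted p = 1). The difference of these APH effects was -0.45 ± 1.32 points (adjusted p = 0.938), and 0.175 ± 0.731 points without experiment B. Without experiment B, APH pools of NPC were higher in 6 of 6 pairs, by 0.446 ± 0.457 points, with an exact p of 0.03125, the smallest that 6 pairs allow, and an adjusted p of 0.156. Within sequencing runs that read both treatments the APH difference was 0.225 ± 0.862 points in ESC (higher in 3 of 6 pairs). In NPC it was -0.171 ± 1.64 points (higher in 5 of 6), with experiment B included. Only line 1 with bait 15 had both cell types in a shared run; there NPC had 5.66% and ESC 6.55% under DMSO, and 6.13 and 7.31% under APH.

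Baits 7 and 15 differed. Over 8 pools each, the share was 7.62 ± 1.16% with bait 7, 7.13 ± 1.43% with bait 12 (6.66 ± 0.52% without experiment B) and 6.04 ± 0.215% with bait 15. Bait 7 lay above bait 15 in 8 of 8 pairs of pools of the same cell type, line and treatment, by 1.59 ± 1.12 points (exact sign-flip test, adjusted p = 0.03125 over 4 comparisons). The 8 pairs come from only 2 lines, with NPC made from the ESC of their line. They are not fully independent, and the p-values of this paragraph may be too small. With either line left out 4 pairs remained, bait 7 was higher in all 4, and the difference was 1.30 points without line 1 and 1.88 without line 2, where 4 pairs cannot reach the threshold. Bait 12 lay above bait 15 in 6 of 8 pairs, by 1.09 ± 1.56 points (adjusted p = 0.0625), and by 0.625 ± 0.481 points without experiment B. Baits 7 and 12 differed by 0.493 ± 2.36 points (adjusted p = 0.57), and by 0.962 ± 1.57 points without experiment B (adjusted p = 0.198). The lines differed by 0.456 ± 1.24 points (line 1 higher in 7 of 12 pairs, adjusted p = 0.327), and by 0.143 points without experiment B. The pools of bait 15 were also the most alike, from 5.66 to 6.30%.

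The 2 cell types differed in opposite directions at baits 7 and 12. With bait 7, the share in ESC was 9.45 and 8.11% in line 1 (APH, DMSO) and 7.90 and 8.69% in line 2, and in NPC it was 7.69 and 6.39% in line 1 and 6.41 and 6.35% in line 2. Every ESC pool of bait 7 was above every NPC pool of bait 7. With bait 12, ESC had 6.04 and 6.62% in line 1 and 7.04 and 5.76% in line 2, and NPC had 7.04 and 10.4% in line 1 (6.68% for the latter without experiment B) and 7.28 and 6.83% in line 2. Here NPC was above its ESC partner in 4 of 4 pairs, by 1.53 ± 1.57 points, although the ranges of the cell types overlapped. Without experiment B the difference was 0.594 ± 0.512 points, with NPC still higher in 4 of 4. With bait 15 the difference was -0.146 ± 0.342 points, with NPC higher in 2 of 4. At baits 7 and 12 no pair had both cell types in a shared sequencing run, so cell type and run cannot be told apart there.

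The NPC minus ESC difference was -1.83 ± 0.366 points with bait 7. This difference was compared between baits by exact permutation of the 4 differences of each, a comparison chosen after the shares were seen. Between baits it differed by -3.36 points for bait 7 against bait 12 and by -1.68 points for bait 7 against bait 15 (adjusted p = 0.0286 for each, the smallest that 4 against 4 allow). Without experiment B these were -2.42 and -1.68 points (adjusted p = 0.0429 for each). For bait 12 against bait 15 the difference was 1.68 points (adjusted p = 0.0286), and 0.74 points without experiment B (adjusted p = 0.0571). APH and DMSO pools of a line share their cells, so the 4 differences of a bait are not fully independent. The permutation also did not keep the pairing of these differences by line and treatment. A paired test of 4 pairs cannot reach the threshold.

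**Figure D2:**
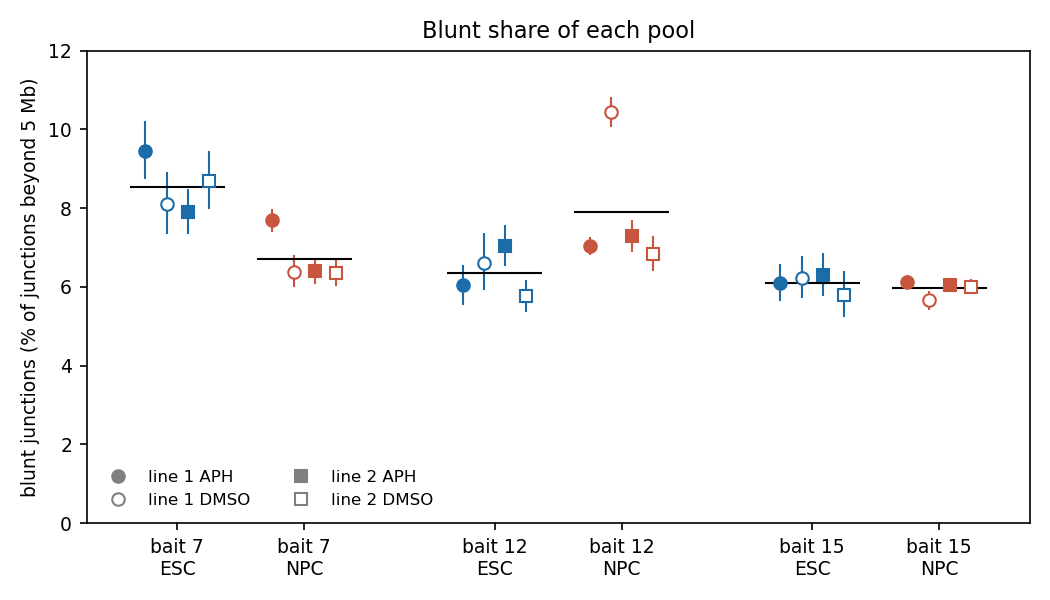
Blunt share of the 24 pools (vertical axis, percent of junctions beyond 5 Mb of the bait break) by bait and cell type, circles for line 1, squares for line 2, filled for APH, open for DMSO. Bars are exact 95% binomial intervals and horizontal lines the mean of 4 pools; with bait 7 the 4 ESC pools (7.90 to 9.45%) lie above the 4 NPC pools (6.35 to 7.69%).

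Where on the bait the join sat went along with the blunt share. For each bait, the outermost bait end held by at least 1% of junctions was taken as the limit (80451954 on chromosome 7, 13000861 on chromosome 12 and 86848209 on chromosome 15), and the bases missing from it were counted. A bait end is part of the alignment that defines a blunt join, so these values describe and carry no test. In joins with 0 to 2 missing bases the share was 8.75 ± 1.2% with bait 7, 12.3 ± 9.21% with bait 12 (9.38 ± 2.31% without experiment B) and 7.14 ± 0.483% with bait 15, over 8 pools each. In joins with 3 to 10 missing bases it was lower and alike, at 6.00 ± 0.396, 5.94 ± 0.899 (5.68 ± 0.543 without experiment B) and 5.86 ± 0.359%. With over 30 missing bases it was 12.1 ± 4.80% with bait 7, 8.04 ± 0.874% with bait 12 (7.86 ± 0.801% without experiment B) and 5.78 ± 1.21% with bait 15.

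With bait 7 and long trimming, the high shares were in ESC. In joins missing over 30 bases, ESC had 19.4 and 16.5% blunt in line 1 (APH, DMSO) and 14.1 and 14.9% in line 2. NPC had 9.91 and 7.82% in line 1 and 6.55 and 7.33% in line 2. The cell types did not overlap, and such joins were 12.1 to 18.7% of ESC junctions and 17.3 to 28.7% of NPC junctions of that bait. In joins missing up to 30 bases the bait 7 share was 7.21 ± 0.388% in ESC and 6.36 ± 0.371% in NPC, with ranges of 6.87 to 7.76% and 6.09 to 6.88% that just overlapped.

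**Figure D3:**
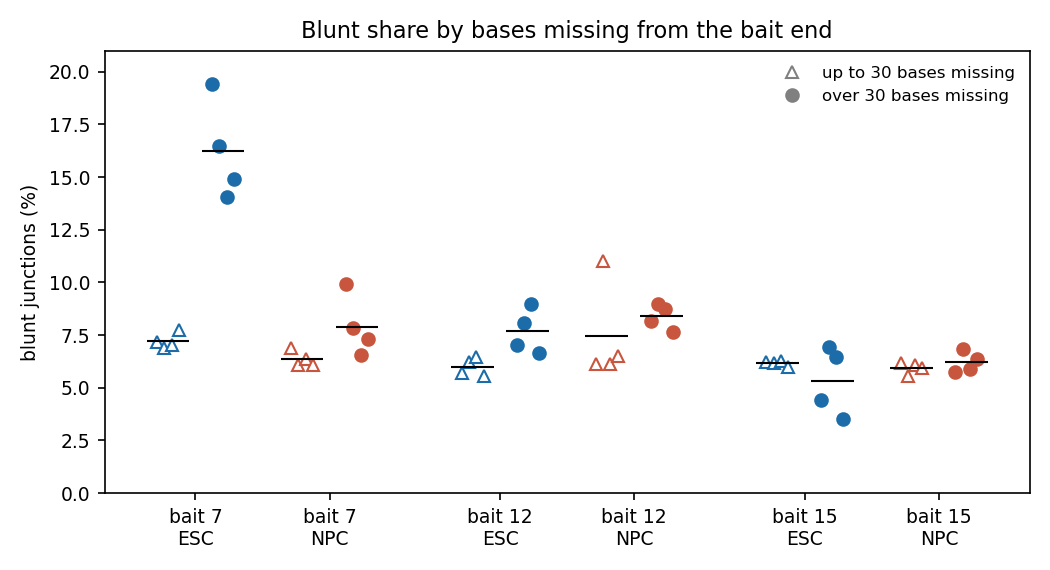
Blunt share of joins with up to 30 (open triangles) and over 30 (filled circles) bases missing from the bait end, by bait and cell type, 4 pools each with their mean as a line. ESC joins of bait 7 with over 30 missing bases lie at 14.1 to 19.4%, above the 6.55 to 9.91% of NPC.

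Single bait ends stood out. Among bait ends with at least 200 junctions in a cell type, the highest blunt share was at chr7:80451998 for bait 7, at chr12:13000860 for bait 12 and at chr15:86848209 for bait 15. For bait 12 the first place rests on experiment B: without it the highest share was at chr12:13000767 in NPC, where 238 of 756 junctions (31.5%) were blunt. At the bait 7 end, 143 of 306 ESC junctions were blunt (46.7%, exact 95% interval 41.0 to 52.5%), with 32.3 to 51.3% in the 4 pools, against 115 of 1134 (10.1%) in NPC with 5.45 to 14.9%. The 143 joined 136 different prey positions on 20 chromosomes. At the bait 12 end, 7.40% of 716 ESC junctions and 10.5% of 1032 NPC junctions outside experiment B were blunt. At the bait 15 end the shares were 15.0% of 1447 in ESC and 11.9% of 3222 in NPC. One blunt read from each, laid out as above, shows the bait sequence that ends there.
Bait 7, ESC, bait end 80451998, prey chr13:75638032, - strand: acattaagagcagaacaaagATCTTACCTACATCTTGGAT
Bait 12, experiment B, bait end 13000860, prey chr1:74498186, + strand: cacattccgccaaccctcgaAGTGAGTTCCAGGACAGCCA
Bait 15, ESC, bait end 86848209, prey chr15:68056949, + strand: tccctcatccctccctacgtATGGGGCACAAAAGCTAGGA

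The bait 7 end held 143 of the 578 ESC blunt joins with over 30 missing bases (24.7%). Leaving out the ends at 80451998 and 13000860 from all pools kept bait 7 ESC (7.46 to 8.64%) above its NPC partner in 4 of 4 pairs, with a difference of -1.40 ± 0.48 points, although the ranges then overlapped. These ends were picked for their blunt share, so this is a description with no test.

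The blunt share is taken of all junctions, and the other classes were not level between the cell types; their differences were not tested. Overlaps of 2 bases made up 17.2 ± 1.93% of ESC junctions and 21 ± 0.808% of NPC junctions under DMSO, and 17.2 ± 1.83 and 21.8 ± 0.541% under APH. Insertions of 3 or more bases made up 19.3 ± 4.85% in ESC and 10.3 ± 1.64% in NPC under DMSO, and 21.3 ± 5.37 and 10.9 ± 0.529% under APH. Insertions of 1 base were 4.43 ± 0.392% and 3.87 ± 0.369% under DMSO. Without experiment B these NPC values under DMSO were 21.2, 10.3 and 3.86%. Overlaps of 5 or more bases were alike, at 14.1 ± 2.26% in ESC and 14.0 ± 0.268% in NPC under APH. With insertion joins taken out of the denominator, the blunt share under APH differed between NPC and ESC by -1.87 ± 1.43 points, lower in 6 of 6 pairs (exact sign-flip p = 0.03125, adjusted p = 0.156). Blunt joins were thus less frequent than overlaps of 1, 2, 3 or 4 bases and more frequent than insertions of exactly 1 or 2 bases in the mean over the 24 pools (6.93% against 10.1, 19.3, 16.6 and 10.1%, and 4.17 and 2.81%).

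**Figure D4:**
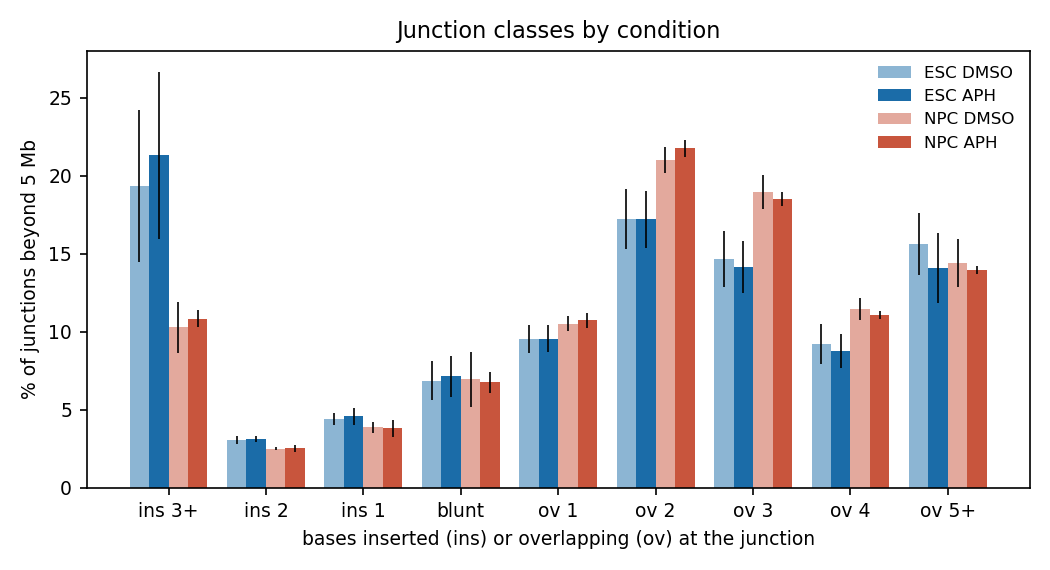
Share of junctions beyond 5 Mb of the bait break (vertical axis, percent) by inserted or overlapping bases, mean of 6 pools with SD as error bars, for ESC (blue) and NPC (red) under DMSO (pale) and APH (dark). The blunt bars lie between 6.77 and 7.14%, and overlaps of 2 bases reach 17.2 to 21.8%.

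Blunt joins were more frequent right at the bait break. Within 10 kb of it 9.63 ± 0.768% of junctions were blunt (24 pools, 8.05 to 10.7%), and from 10 to 100 kb 6.04 ± 0.503% were. Farther out the share stayed near that: 6.24 ± 1.68% from 100 kb to 1 Mb, 6.26 ± 2.34% from 1 to 5 Mb, 6.16 ± 1.16% from 5 to 20 Mb, 6.28 ± 1.49% from 20 to 50 Mb and 7.11 ± 1.59% beyond 50 Mb. On other chromosomes it was 7.06 ± 1.39%. Without experiment B the bands beyond 5 Mb had 6.04 ± 0.81, 6.16 ± 1.05 and 7 ± 1.60%, and other chromosomes 6.90 ± 1.17%. Over the whole 5 Mb zone 9.32% of 1487696 junctions were blunt, and 22 of 24 pools had a lower share outside the zone than inside. The exceptions were ESC line 1 bait 7 APH (9.45 against 9.02%) and NPC line 1 bait 12 DMSO (10.4 against 9.93%), the pool with experiment B.

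**Figure D5:**
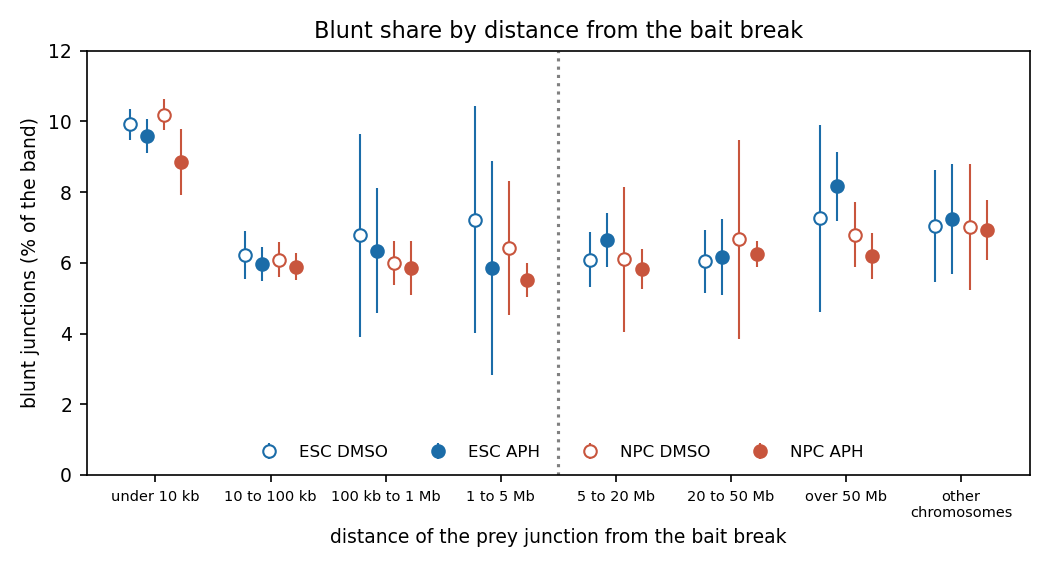
Blunt share (vertical axis, percent of junctions in the band) by distance of the prey junction from the bait break, mean of 6 pools with SD, ESC in blue, NPC in red, open for DMSO, filled for APH. The dotted line marks 5 Mb; the share is 8.85 to 10.2% within 10 kb and at most 8.16% in every band beyond.

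Across chromosomes the blunt share differed little when pools were joined, with chromosomes 7 and 15 at the ends of the range. Pooled over all pools and leaving out each pool's own bait chromosome, it ran from 6.13% on chromosome 7 (1193 of 19469, interval 5.79 to 6.47%) to 7.85% on chromosome 15 (669 of 8521, 7.29 to 8.44%). Chromosomes 7, 12 and 15 are seen by 2 of the 3 baits only, and pools of different baits weigh differently in them. The other chromosomes lay between 6.40% (chromosome 17) and 7.12% (X). As means over pools the share ranged from 5.26% (chromosome 7) to 9.21% (chromosome 18) in ESC and from 6.47% (chromosome 17) to 7.84% (chromosome 15) in NPC; the joined values weigh the deeper NPC pools more. Without experiment B the ends of the joined range were 5.93% and 7.47%, on the same chromosomes. Over 275 windows of 10 Mb, counts of blunt and of other junctions went together, with a Spearman correlation of 0.926 in NPC under APH, 0.894 in NPC under DMSO (0.89 without experiment B), 0.754 in ESC under APH and 0.661 in ESC under DMSO. The 2 counts share libraries and mappable length, the conditions differ in depth, and windows are not replicates.

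Where blunt junctions lay was compared with other junctions of the same pool for 4 measures in 4 conditions, by exact two-sided sign-flip tests over 6 pools with adjustment over the 16. None passed. The share on the bait chromosome was 14.1 ± 1.97% for blunt and 15.7 ± 5.54% for other junctions in ESC under DMSO, 16.5 ± 3.25 and 17.4 ± 5.04% in ESC under APH, 13.0 ± 3.44 and 14.0 ± 3.20% in NPC under DMSO, and 15.4 ± 4.79 and 17.3 ± 5.39% in NPC under APH. Blunt junctions were lower in 5 of 6 pools in each NPC condition (adjusted p = 0.214), and in 4 of 6 under DMSO without experiment B (-0.799 ± 1.27 points, adjusted p = 0.389). The share read towards higher coordinates on the bait chromosome was 47.8 ± 3.41% for blunt and 49.9 ± 4.39% for other junctions in NPC under APH, lower in 6 of 6 pools (adjusted p = 0.125), and 44.2 ± 5.64 against 49.7 ± 1.26% in ESC under APH, lower in 5 of 6 (adjusted p = 0.2). Under DMSO the differences were 0.707 points in ESC and -0.0126 in NPC (0.427 without experiment B).

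Blunt junctions shared their exact position and strand with another read of the pool less often than other junctions in most pools, but no test passed after adjustment. In ESC under DMSO 23.4 ± 15.8% of blunt and 27.9 ± 17.2% of other junctions did so (lower in 6 of 6 pools), in ESC under APH 27.0 ± 12.5 and 31.4 ± 14.7% (6 of 6), and in NPC under APH 6.87 ± 2.30 and 7.97 ± 2.69% (6 of 6), each with an exact p of 0.03125 and an adjusted p of 0.125. In NPC under DMSO the difference was -0.83 ± 0.908 points (4 of 6 lower, adjusted p = 0.25). With 6 pools and 16 tests, a single test at the smallest possible p does not pass after adjustment.

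Bins that gained junctions with APH were looked at for their blunt share. The fit of junctions of every class in 500 kb bins called 20 of 882 bins in ESC (2.27%), all higher with APH, and 74 in NPC (8.39%), 71 of them higher. In the 71 NPC bins, 6.26% of 20156 junctions under APH were blunt (interval 5.93 to 6.60%), against 6.56% outside them. In the 20 ESC bins, 6.97% of 1737 were (5.81 to 8.27%), against 7% outside. Per pool the difference between inside and outside was -0.68 ± 1.35 points in NPC under APH (adjusted p = 0.45) and -0.259 ± 3.21 points in ESC under APH (adjusted p = 0.867). Under DMSO, 9.05% of only 243 junctions in the ESC bins were blunt (5.76 to 13.4%), against 6.60% outside, and per pool the difference was 3.27 ± 5.32 points (adjusted p = 0.389). In the NPC bins under DMSO 6.63% of 5130 were, against 6.70% outside (6.00 and 6.16% without experiment B), with a difference of 0.101 ± 1.24 points per pool (adjusted p = 0.857). Blunt junctions in these bins rose with APH as the choice of bins fixes for all junctions: from 2.60 ± 1.27 to 7.52 ± 1.32% of blunt junctions in NPC (from 2.45 ± 1.24% without experiment B), beside 2.61 ± 1.28 to 8.48 ± 2.2% of the others, and from 0.865 ± 0.576 to 3.39 ± 1.91% in ESC, beside 0.559 ± 0.178 to 3.37 ± 1.40%.

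Blunt junctions alone were too few for 500 kb bins. The filter on low counts left 1 of 5084 bins, so tests of APH and of cell type had to be run without it, with edgeR's quasi-likelihood test and Benjamini-Hochberg adjustment on 4922 bins. APH changed 0 bins (0%) in ESC, 0 in NPC and 0 for the difference, with 13, 64 and 18 at an unadjusted p under 0.05. NPC were called higher than ESC in 10 bins (0.203%) under APH and in 1 (0.0203%) under DMSO. The median log2 fold change of all 4922 bins was 1.25 and 1.02, so the whole set was shifted towards NPC and these calls are not read as regional differences. In windows of 10 Mb, chosen after this was seen, 57 passed the filter. APH changed 0 of them in ESC (6 unadjusted; DESeq2 also called 0), and 1 in NPC (1.75%). NPC were called higher than ESC in 3 (5.26%) under APH and 0 under DMSO (10 unadjusted; DESeq2 also called 0). On simulated counts of these windows the test recovered, among changes of 2-fold and 4-fold size, 21.4% and 78.6% in the ESC treatment comparison and 64.3% and 100% in the NPC one. For NPC against ESC under APH it recovered 0% and 100%. Each value is 1 draw with 14 changed windows. Apart from these changes, all pools were given the same window shares and a single spread. Differences between lines and baits were thus absent, and the values are a rough guide to the real fits.

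The window that rose with APH in NPC was chr7:90000001-100000000. Its blunt junctions numbered 63 under APH and 17 under DMSO in line 1 with bait 7, 60 and 18 in line 2 with bait 7, 17 and 7 in line 1 with bait 12, 2 and 0 in line 2 with bait 12, 13 and 3 in line 1 with bait 15, and 10 and 7 in line 2 with bait 15. Each APH pool had more, and most junctions came from the bait on the same chromosome. By edgeR the window rose by 1.08 ± 0.26 on the log2 scale (SE, adjusted p = 0.00214). The window held 0.48% of the blunt junctions in the windows used under DMSO and 0.969% under APH over the NPC pools, beside 0.62% and 1.03% of other junctions. Without line 2 bait 7, and in a fit with no block, it was not called.

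The 3 windows called higher in NPC than in ESC under APH had few ESC junctions and passed the low-count filter mainly through the NPC pools. The calls therefore carry no weight as a test, and the values are given as a description. The windows lay at chr7:100000001-110000000 (log2 fold change 1.29 ± 0.32), chr11:110000001-120000000 (1.69 ± 0.50) and chr11:100000001-110000000 (1.68 ± 0.52), all by edgeR. In the last, blunt junctions under APH numbered 121 in NPC and 8 in ESC, or 0.711 and 0.236% of the blunt junctions in the windows used, beside 0.707 and 0.497% of other junctions. In the chromosome 11 window from 110000001 they numbered 115 and 9, or 0.676 and 0.266%, beside 0.662 and 0.459% of other junctions. In the chromosome 7 window they numbered 248 and 28, or 1.46 and 0.827%, beside 1.55 and 1.2%. The difference between blunt and other junctions here was not tested. With total counts as library size, which moved the median of the 57 windows from 0.1 to -0.2 on the log2 scale, 1 window was called in place of 3.

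Set against other junctions in the same bin, no bin tested was called for blunt junctions with total counts as library size. The bins tested were 45 of 5084 of 500 kb, which passed the filter on blunt and other counts together, and 263 windows of 10 Mb. Most bins of 500 kb were thus not tested. In the planned fit, 36 of 45 bins of 500 kb (80.0%) were called lower for blunt and 0 higher, but the median log2 ratio of all 45 was -1.2, so the whole set was shifted. With total counts as library size the median was -0.04 and 0 bins (0%) were called, with 2 at an unadjusted p under 0.05; DESeq2's size factors gave 34 lower at a median of -1.06. The 10 bins with the smallest adjusted p held 3.99 to 6.13% blunt junctions (median 5.52%), beside 6.64% over the genome. They were picked from bins called lower for blunt, so their low shares follow from that choice and carry no test. In 263 windows of 10 Mb the median was -0.11 and 0 were called (36 unadjusted; DESeq2 0). On simulated counts of these windows, made in the same simple way in 1 draw, the test found 98.5% of 2-fold differences, with 10 false calls among 74. The APH effect differed between the classes in 0 bins in ESC (3 unadjusted; DESeq2 0) and in 1 of 45 (2.22%) in NPC, at chr7:137500001-138000000 (log2 difference 3.53 ± 0.87, adjusted p = 0.00229, edgeR), which rested on 16 blunt junctions in NPC under APH and 2 under DMSO and was not called with DESeq2 or total counts. In windows of 10 Mb both counts were 0 (22 and 7 unadjusted; DESeq2 0 and 0).

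Joins of bait 15 to the chromosome 12 bait locus were more often blunt than its other joins off chromosome 15, by counting intervals alone. Bait 15 pools held 737 junctions within 1000 bases of the chromosome 12 bait end, of which 87 (11.8%, interval 9.56 to 14.4%) were blunt. Their other junctions off chromosome 15 were 6.01% blunt (5.92 to 6.10%). Within 10 kb of the own bait break the mean over 24 pools was 9.63%, which lies inside the interval of the 737. Of the 737, 580 came from NPC line 2 bait 15 APH (11.4%, 8.91 to 14.2%), and the 157 of the other 6 pools were 13.4% blunt (8.47 to 19.7%). The same neighbourhood had 44 junctions from bait 7, 1 of them blunt, and bait 12 had 28 junctions near the bait 7 end, 1 of them blunt. Whether the chromosome 12 locus was cut in these cells was not tested.

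The bases at a blunt join differed from those at an overlap, which the definition of the classes in part sets. The first prey base of blunt joins was A in 30.7 ± 4.69%, T in 28.3 ± 3.27%, C in 20.7 ± 5.21% and G in 20.3 ± 2.87% (24 pools). With an overlap the first prey base repeats bait sequence, and it was C in 42.9 ± 8.90% and A in 19.4 ± 5.00%. The last bait base of blunt joins was C in 38.0 ± 8.37% and G in 16.6 ± 8.33%, close to the 43.5 ± 8.79% and 12.2 ± 6.27% of joins with overlap. The prey alignment had a median length of 72.3 ± 13.6 bases in blunt, 76.9 ± 13.9 in overlap and 67.0 ± 15.6 in insertion joins. On the bait chromosome beyond 5 Mb, blunt joins lay at a median of 33.6 ± 12.8 Mb from the break, joins with overlap at 31.5 ± 11.3 Mb and joins with insertions at 31.0 ± 11.3 Mb.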

How the data were processed

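The members and lists were chosen with earlier results of these data known. Junction tables were deposited for 24 pools; per the labels' protocols they come from linear amplification-mediated PCR libraries, and per the submitters' processing notes reads were aligned with Bowtie2 to mm9. Their versions, and the name of the junction caller, remain not given in the sources used here. Per the file headers each row is 1 junction read, so the values are raw counts of reads with alignment positions (other deposited columns), with no normalization by the authors. Repeated read names within a table were dropped, leaving 2018794 of 2037403 rows. The overlap was the bait alignment's end minus the prey alignment's start plus 1. The zone was centred on the modal start of the bait alignment (chr7:80451956, chr12:13000729 and chr15:86848129), which for baits 12 and 15 is the primer side. In 21 tables row letters matched the labels; 3 were used as pools only. One labelled experiment, B of NPC line 2 bait 12 APH, has only rows already listed under A and so no value of its own.

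Shares were compared with exact sign-flip tests (Python, numpy 2.4.6, scipy 1.17.1 for Clopper-Pearson intervals), and bins with edgeR 4.0.16 in R 4.3.3 (quasi-likelihood test, TMM, filterByExpr with a minimum count of 5, threshold 0.05) or DESeq2 1.42.0. Bins touching a bait zone were left out. Tests were tried on simulated data. Named bins were the 10 with the smallest adjusted p past the threshold and the same sign in both lines, or the 3 with the smallest p, of which the text gives those called. The 10 Mb windows replace the planned 500 kb bins where the filter left too few. No annotation of mm9 was used, so no genes are named.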

Additional observations from a re-analysis of the deposited data

Results flagged for a closer look

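Experiment B of NPC line 1 bait 12 DMSO had a blunt share of 23.5%, far above the other 3 experiments of its pool, the next being 6.82%. It makes its pool (10.4%) stand apart both among the 6 NPC DMSO pools, where the next is 6.83%, and among the 8 pools of bait 12, where the next is 7.28%. Among the 4 experiments of NPC line 1 bait 7 APH, experiment C was high at 8.97% (next 7.36%). Among those of NPC line 1 bait 7 DMSO, experiment B was low at 5.76% (next 6.55%), and among those of ESC line 2 bait 15 DMSO, experiment D was low at 5.22% (next 5.89%). Of 27 groups looked at, 6 were marked in this way, 3 of them through the same experiment; chance marks about 1 in 20.

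The difference between NPC and ESC was not the same at the 3 baits: -3.36 percentage points for bait 7 against bait 12, -1.68 for bait 7 against bait 15 and 1.68 for bait 12 against bait 15, each with an adjusted p of 0.0286 by exact permutation. That p is the smallest that 4 against 4 allow, and the comparison was chosen after the shares were seen. Without experiment B the values were -2.42, -1.68 and 0.74 points (adjusted p = 0.0429, 0.0429 and 0.0571, same test). Pools of a line share their cells, so the differences are not fully independent. The permutation also did not keep their pairing by line and treatment. A paired test of 4 pairs cannot reach the threshold.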

How the results depend on the processing

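Of the share comparisons, 80 alternative values that leave out no line or bait kept direction and call. The NPC minus ESC difference under DMSO, 0.0779 points, turned to -0.0723 with each junction counted once, -0.0231 off the bait chromosome, -1.07 without insertions, -0.285 with prey of 50 or more bases, -0.548 without experiment B and -0.171 without the bait ends of highest share. The APH effect in NPC turned to 0.446 without experiment B and 0.138 without those ends, the difference of APH effects to 0.175 and the NPC DMSO orientation to 0.427, both without B. Bait 12 minus bait 15 passed with each junction once (1.16) and a 10 Mb zone (1.14). The cell type difference for bait 12 against 15 no longer passed with each junction once (1.52), without insertions (2.11) and without B (0.74), and was 1.13 without those ends, which were picked for their blunt share.

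Leaving out a line, or a line and bait, gave -0.67 to 0.563 for NPC minus ESC under DMSO, -0.544 to 0.465 for the APH effect in NPC, -0.758 to 0.0248 for the difference of APH effects and 1.30 to 1.88 for bait 7 minus 15. It gave -4.15 to -2.58, -1.90 to -1.47 and 0.678 to 2.68 for the bait comparisons 7 against 12, 7 against 15 and 12 against 15, where 2 pairs cannot pass. For orientation in NPC under DMSO it gave -1.13 to 0.834, and for the gained bins -1.37 to 0.562 in ESC under APH and -0.319 to 0.443 in NPC under DMSO.

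Bins called for blunt against other, 36 of 45 at 500 kb, became 5 of 10 at 250 kb, 134 of 156 at 1 Mb and 0 of 45 with total counts. They became 4557 of 5084 without the filter and 35 of 50 to 64 of 82 on leaving out. All calls were lower for blunt. The median log2 ratio of all bins was -0.66 at 250 kb, -1.15 at 1 Mb and -2.11 without the filter, so these counts are not read as regional differences. For the APH effect in NPC, 0 of 10 were called at 250 kb and 0 of 35 with each junction once. With DESeq2 or total counts 0 of 45 were called, 2 of 45 without B and 0 to 1 on leaving out. In place of 1 of 57 windows of 10 Mb, APH in NPC gave 0 of 111 with 20 Mb windows and 0 of 57 with no block. It gave 3 of 40 with each junction once and 0 to 1 of 49 to 59 on leaving out. NPC against ESC under APH gave 1 of 40 with each junction once, 1 of 57 with total counts and 1 to 4 on leaving out. Under DMSO it gave 5 of 18 at 5 Mb, where the median of all 18 was 0.88 on the log2 scale. Also under DMSO it gave 2 of 40 with each junction once, 2 of 57 without B and 1 of 57 with total counts. On leaving out it gave 0 to 1. Blunt against other gave 88 of 480 at 5 Mb, all lower for blunt, at a median log2 ratio of -0.37. It gave 4 of 263 with each junction once, 6 of 269 without the filter and 0 to 2 on leaving out. Its APH effect in NPC gave 1 of 263 with each junction once and 1 of 263 with total counts. The cause was not tested.

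With experiment letters as a replicate block, APH differed by 0.339 ± 0.923 points in ESC (higher in 9 of 16 pairs, permutation p = 0.163). In NPC the difference was -0.33 ± 3.90 points (higher in 13 of 19 pairs, permutation p = 0.999). Experiment B of NPC line 1 bait 12 was included, with 7.33% under APH and 23.5% under DMSO. Same-lettered experiments correlated above 0.1 in 6 of 9 table pairs, and between -0.894 and 0.0318 in the other 3. The labels do not say that a letter marks a shared culture or day, so no pairing was assumed. Planned fits of 500 kb blunt counts under the filter could not be run.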

Other observations

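Blunt joins of bait 7 in ESC whose bait lacked over 30 bases numbered 578, and 143 of them (24.7%) ended the bait at the base 44 bases inside the limit. In NPC 1744 such joins were spread more widely: the most frequent end, 43 bases inside, held 181 (10.4%). Of these joins 89.4% in ESC and 80.9% in NPC went to other chromosomes, to 533 and 1675 different positions. Among windows of 10 Mb with at least 200 junctions, the blunt share ran from 3.56 to 10.4% over 269 windows in NPC under APH and from 1.89 to 15.3% over 84 windows in ESC under APH, with medians of 6.63 and 6.64%.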
